A study of Mus musculus with 3 samples.

Results

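The 30 genes described here encode cytoplasmic (non-receptor) tyrosine kinases of the JAK, SRC, FRK, CSK, ABL, TEC, SYK, FES, FAK and ACK families. They were taken by name from 55211 mouse genes that could be matched across all libraries, and all 30 were found. The samples were 3 separate cultures of Ba/F3, a mouse haematopoietic line that depends on interleukin-3 (IL-3) for growth. All were kept in RPMI with 10% fetal calf serum, penicillin-streptomycin and 0.2 ng/mL recombinant murine IL-3, and polyadenylated RNA was sequenced. There is 1 group and no contrast between conditions, so the data show which kinase genes the line transcribed and how far the cultures differed. No genetic change is named in the labels, and the cultures are of a single cell line.

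Cytoplasmic tyrosine kinases lack a transmembrane segment and are recruited to receptors that often have no kinase activity of their own. JAK kinases sit on cytokine receptor chains and phosphorylate STAT factors, and JAK2 bound to the common beta chain carries the IL-3 signal. SRC family kinases phosphorylate immune receptor tails, SYK and ZAP70 dock there, TEC kinases act next on phospholipase C gamma, and CSK shuts SRC family kinases by phosphorylating their tail. FAK and PYK2 act downstream of integrins.

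Of the 30 genes, 18 were detected, meaning a level of at least 1 CPM (counts per 1000000 gene-assigned reads) in each of the 3 cultures, and 12 were not. Over all genes 19.9% were detected, and over protein-coding genes 45.9%. The libraries held 32044889, 33880292 and 37180883 reads in cultures 1, 2 and 3, respectively. A gene with 0 reads can still lie as high as 3 reads allow, which is 0.0936, 0.0885 and 0.0807 CPM (counting error only). To compare genes with each other, CPM was divided by the length of the union of a gene's exons, giving CPM per kb. On that scale the median of the 18 detected kinases was 13.7, beside 8.65 for all 10991 detected genes.

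The detected kinases spanned from 107 ± 2.41 CPM per kb for Jak1 to 0.193 ± 0.0222 for Txk (mean ± SD, n = 3 cultures, as throughout). Jak1, Btk, Fes and Csk together made up 62.9 ± 0.0739% of the CPM per kb of all 30 genes. In falling order the 18 genes were Jak1, Btk, Fes, Csk, Jak2, Ptk2b, Lyn, Syk, Tec, Tnk2, Tyk2, Jak3, Abl1, Fyn, Abl2, Lck, Matk and Txk. The 3 values of neighbours in that order did not overlap, with 5 exceptions: Fes with Csk, Tec with Tnk2, Tyk2 with Jak3, Jak3 with Abl1, and Abl1 with Fyn. The order depends on the length used: with the longest transcript in place of the exon union, a setting chosen after seeing the data, Csk (96.8 ± 6.28) stood above Fes (82.9 ± 6.12), Ptk2b (61.2 ± 0.686) above Jak2 (46.8 ± 1.75), and Abl1 moved from rank 13 to rank 9. By family, JAK genes held 31.9 ± 0.408% of the CPM per kb of the 30 genes, TEC 20.5 ± 0.454%, FES 12.9 ± 0.856% and CSK 12.9 ± 0.891%. The SRC family, with 7 genes the largest in number here, held 7.09 ± 0.0978%.

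**Figure D1:**
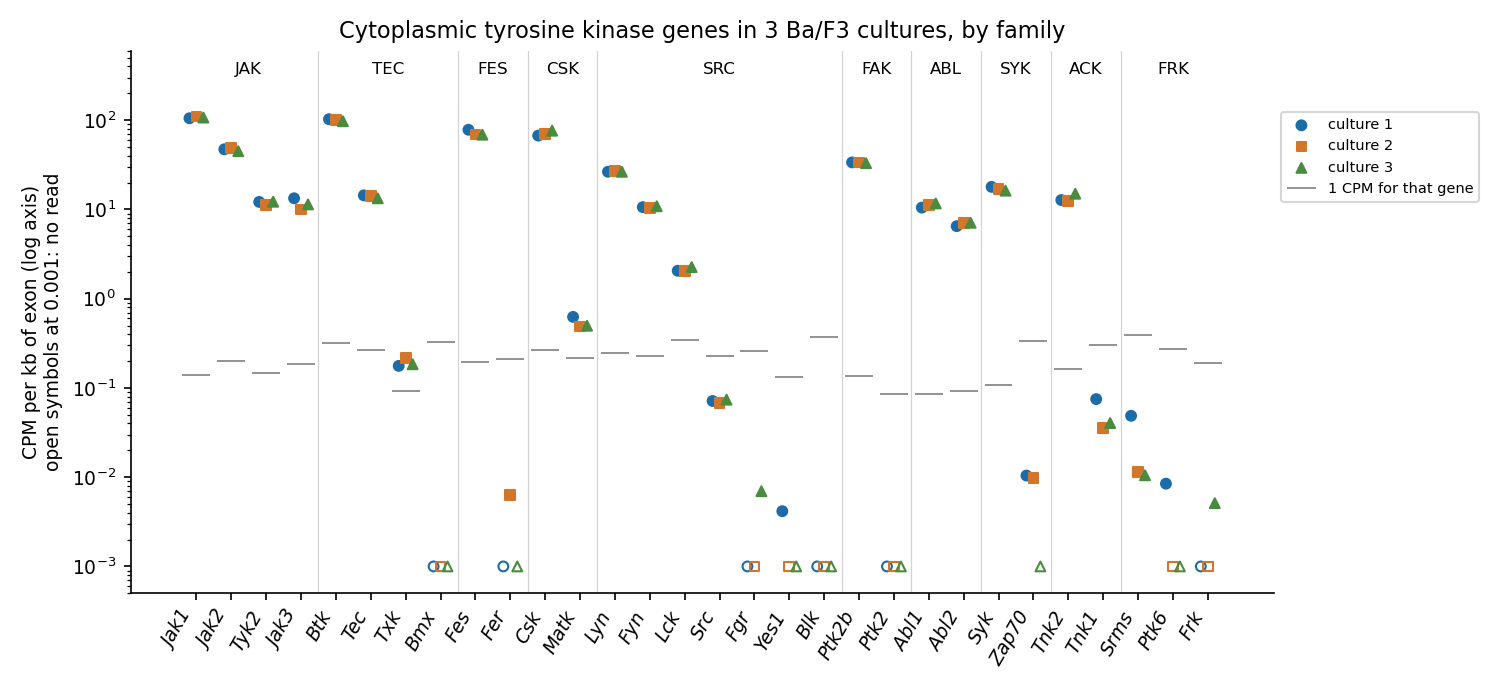
CPM per kb of exon (log axis) of the 30 kinase genes in cultures 1, 2 and 3 (symbols), ordered by family; grey bars mark the level that equals 1 CPM for that gene and open symbols a gene without a read. The TEC, FES, SRC, FAK, SYK and ACK families each held genes above 2 CPM per kb and genes below 0.2, and the cultures lay close together where a gene was detected.

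The label was checked against marker genes. The IL-3 receptor genes Il3ra (28.2, 27.3 and 38.7 CPM) and Csf2rb (741, 725 and 698 CPM) were present. Of 12 B cell markers 2 were detected, Cd79b and Cd79a, and Ebf1 and Blnk had no read. Of 12 T cell markers 2 were detected, Lat and Cd3g, of 12 myeloid markers 9, and of 6 epithelial markers 0. The mitochondrial genome took 1.68%, 1.31% and 1.04% of reads in cultures 1, 2 and 3, and the summed CPM of the myeloid markers was 756, 769 and 850; the part of either in the differences below was not tested.

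To show what the start sites of expressed and silent kinase genes look like, promoters were read from RefSeq (GRCm38.p6), which held an entry for 25 of the 30 genes; Blk, Lyn, Ptk2, Ptk2b and Ptk6 had none. The stretches below are the 250 bases before the start site with the most CG dinucleotides of each gene, 5′ to 3′ on the gene's strand, with CG in capitals, because runs of CG mark the promoters of many broadly expressed genes. The genes shown were picked by name and do not stand for the 25. The first 3 are rich in CG, and only Jak2 of them was detected, whereas 8 of all 11 kinase genes at 17 CG or more were. The last 2 are poor in CG, and Btk of them was the second highest kinase gene by CPM per kb.
Jak2, chr19:29251553-29251802, plus strand, 37 CG: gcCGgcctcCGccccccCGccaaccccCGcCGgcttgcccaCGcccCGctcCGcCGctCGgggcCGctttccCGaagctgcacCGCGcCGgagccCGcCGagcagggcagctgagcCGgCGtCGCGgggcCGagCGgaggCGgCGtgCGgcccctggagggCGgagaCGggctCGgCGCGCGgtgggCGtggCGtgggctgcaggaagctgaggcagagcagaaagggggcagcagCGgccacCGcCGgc
Yes1, chr5:32610921-32611170, plus strand, 37 CG: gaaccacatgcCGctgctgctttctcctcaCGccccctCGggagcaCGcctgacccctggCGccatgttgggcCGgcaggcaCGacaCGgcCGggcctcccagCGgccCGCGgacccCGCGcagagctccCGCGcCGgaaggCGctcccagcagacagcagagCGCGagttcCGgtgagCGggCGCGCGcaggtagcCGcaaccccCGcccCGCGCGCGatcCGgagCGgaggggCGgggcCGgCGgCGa
Src, chr2:157424043-157424292, plus strand, 40 CG: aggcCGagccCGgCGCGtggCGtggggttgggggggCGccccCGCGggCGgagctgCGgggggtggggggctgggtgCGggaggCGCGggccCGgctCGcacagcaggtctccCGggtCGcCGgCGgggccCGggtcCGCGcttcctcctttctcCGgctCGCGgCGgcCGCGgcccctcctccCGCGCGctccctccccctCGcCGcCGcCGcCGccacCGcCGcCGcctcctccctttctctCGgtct
Btk, chrX:134583141-134583390, minus strand, 3 CG: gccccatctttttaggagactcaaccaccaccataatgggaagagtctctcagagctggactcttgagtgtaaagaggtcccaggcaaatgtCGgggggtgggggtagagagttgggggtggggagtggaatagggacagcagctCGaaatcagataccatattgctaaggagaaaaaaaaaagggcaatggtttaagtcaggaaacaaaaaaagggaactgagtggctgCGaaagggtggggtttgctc
Frk, chr10:34483150-34483399, plus strand, 0 CG: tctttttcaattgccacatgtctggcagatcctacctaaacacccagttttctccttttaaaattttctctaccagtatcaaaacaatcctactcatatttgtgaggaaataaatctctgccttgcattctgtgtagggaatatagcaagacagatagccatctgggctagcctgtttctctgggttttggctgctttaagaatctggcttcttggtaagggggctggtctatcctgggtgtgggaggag

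Jak2 and Yes1 thus carried the same number of CG dinucleotides, with 235.6 ± 8.82 CPM for Jak2 and a single read in 1 of 3 cultures for Yes1. Taking each gene's start site with the most CG, the 16 detected kinase genes with an entry had a median of 17.5 (range 3 to 37) and the 9 undetected ones a median of 9 (range 0 to 40). Over all detected genes with an entry the median was 17, and over undetected protein-coding genes 4. Of the 11 kinase genes at 17 or more, 8 were detected and 3 were not (Src, Yes1 and Fer, the last with 26 CG). Of the 14 below 17, 8 were detected and 6 were not. Btk, Lck (3 CG each), Tnk2 and Txk (4 CG each) were detected with few CG. The windows follow RefSeq start sites, and those counted for Btk, Lck, Tnk2, Txk, Src and Fer, among others, lie inside the annotated gene. That of Tnk2 starts at 32672904 in a plus-strand gene from 32643874 to 32683493. For Btk, Tnk2, Src and Fer no window at the outer end of the gene was read. The CG counts are a description of letters in a window and say nothing of methylation, which was not measured here.

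**Figure D2:**
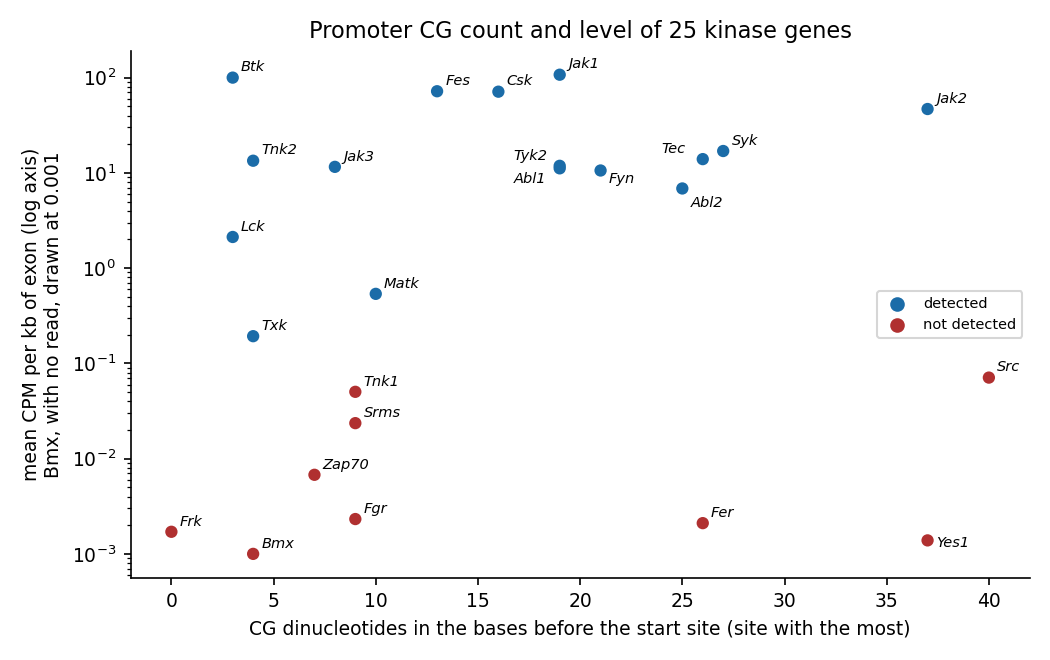
CG dinucleotides in the 250 bases before the start site (horizontal; site with the most CG) against mean CPM per kb (vertical, log axis) for 25 kinase genes, blue where detected and red where not. Src, Yes1 and Fer stand low on the right, with 40, 37 and 26 CG and next to no reads, and Btk stands high on the left with 3.

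Motifs were searched in the same 250 bases of every start site, and the 25 kinase genes had 35 start sites; a gene with several is counted if any of them holds the motif, so the share of sites is the one to set beside the share of promoters. The STAT motif TTCNNNGAA, searched on both strands, occurred in 7.02% of 32851 promoters and in 1 of the 35 sites (2.86%), that of Srms, which was not detected. The PU.1 core GAGGAA on both strands occurred in 23.3% of promoters and in 13 of the 35 sites (37.1%), or 10 of 25 kinase genes, 5 of the 16 detected and 5 of the 9 undetected. The GATA motif AGATAA on both strands occurred in 9.99% of promoters and in 1 of the 35 sites (2.86%), that of Txk. The TATA box letters TATAAA on the gene's strand occurred in 7.59% of promoters and in 0 of the 35 sites.

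All 4 JAK genes were detected. Jak1, which serves interferon and many interleukin receptors (ENSMUSG00000028530, GRCm38 chromosome 4, 101152367 to 101265282, minus strand), had 759.6, 794 and 773 CPM. Jak2, the kinase bound to the common beta chain of the IL-3 receptor (ENSMUSG00000024789, chromosome 19, 29251828 to 29313080, plus strand), had 238, 243 and 226 CPM. Per kb, Jak1 was 2.29 ± 0.0800 times Jak2 and higher in every culture. With the longest transcript as length this ratio was 3.38 ± 0.118. Tyk2, a partner of interferon and interleukin-12 family receptors, had 83.4, 77.3 and 83.7 CPM. Jak3, which binds the common gamma chain (ENSMUSG00000031805, chromosome 8, 71676296 to 71690575, plus strand), had 71.4, 53.5 and 60.9 CPM. Culture 1 was the highest and culture 2 the lowest for Jak3, while for Jak2 culture 3 was the lowest. Of the CPM per kb of the family, Jak1 took 60.4 ± 1.15%, Jak2 26.4 ± 0.693%, Tyk2 6.68 ± 0.362% and Jak3 6.52 ± 0.97%, the last pair within their spread.

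Of the 7 SRC family genes only Lyn, Fyn and Lck were detected. Lyn, the main SRC family kinase of myeloid and B cells (ENSMUSG00000042228, chromosome 4, 3678115 to 3813122, plus strand), had 108, 111 and 108 CPM. Fyn, found in many tissues, had 46.3, 45.1 and 47.3 CPM. Lck, best known from the T cell receptor, had 6.02, 6.02 and 6.62 CPM; in bulk RNA, a low level in every cell and a higher level in few cells cannot be told apart. The values of the 3 genes did not overlap, and Lyn took 67.6 ± 0.966%, Fyn 26.8 ± 0.712% and Lck 5.38 ± 0.285% of the family's CPM per kb. Beside Lck, of 12 T cell markers Lat had 20.8, 19.6 and 20.7 CPM and Cd3g 4.24, 4.37 and 3.93 CPM, while Cd8a, Cd2 and Cd28 had no read; the summed level of the list was 25.5, 24.3 and 24.9 CPM, and its part in the Lck level was not tested.

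The other 4 SRC family genes were silent or nearly so. Src, the founding member and widely expressed, had 10, 10 and 12 reads, or 0.312, 0.295 and 0.323 CPM. Yes1, also widely expressed in tissues, had 1 read in culture 1 and 0 in the others. Fgr, a myeloid kinase, had 1 read in culture 3 only, and Blk, a B lymphoid kinase, had 0 reads in every culture. Per kb, Lyn was at least 762-fold higher than Blk, taking 3 reads per library as the limit for Blk. Of Lyn and Fgr, both known from myeloid cells, Lyn alone passed 1 CPM. Of the 12 myeloid markers 9 were detected, and the 3 with the highest CPM were Prtn3 (130.0, 132 and 159 CPM), Spi1 (127, 129.9 and 150.1 CPM) and Cebpe (105.1, 117 and 150.3 CPM). Among the defining markers that were not, Cebpa had no read, Ly6g had 1 read over all cultures and Elane had 26, 27 and 30 reads, below 1 CPM.

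**Figure D3:**
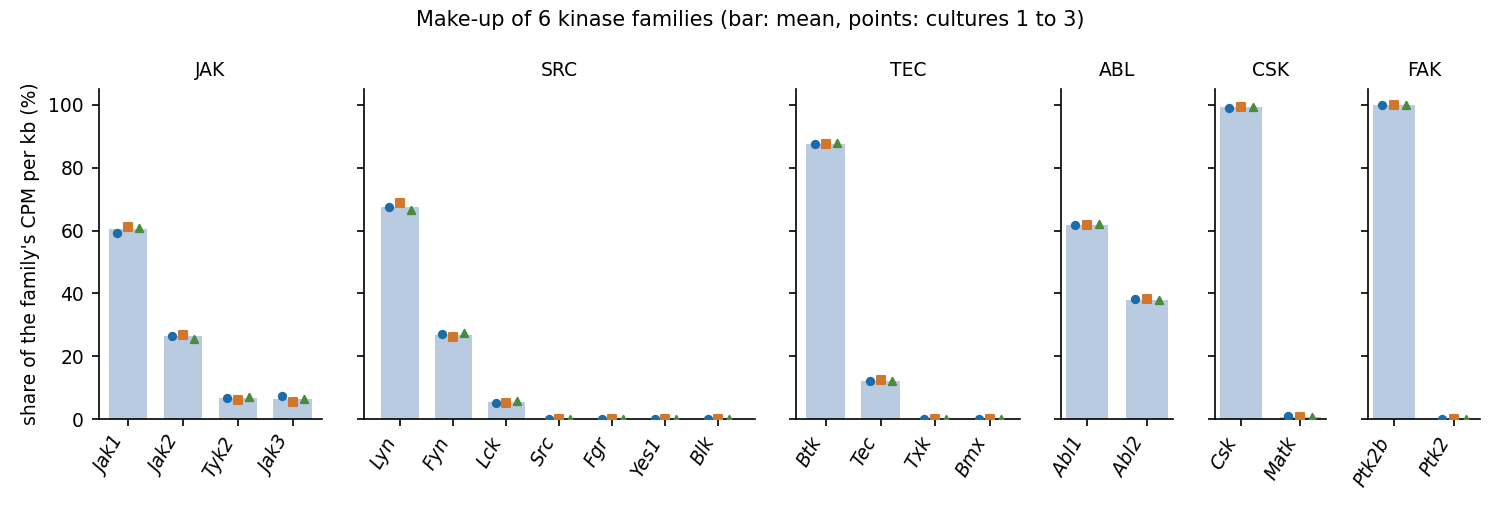
Share of each family's summed CPM per kb (percent) taken by each gene in the JAK, SRC, TEC, ABL, CSK and FAK families; bars are means of 3 cultures and points the cultures. A single gene took most of each family: Jak1, Lyn, Btk, Abl1, Csk and Ptk2b, from 60.4% for Jak1 to 100% for Ptk2b.

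The restraining kinase gene Csk stood above its targets. Csk (ENSMUSG00000032312, chromosome 9, 57626646 to 57653631, minus strand) had 251, 262 and 285 CPM. Its relative Matk, which phosphorylates the same tail, had 2.87, 2.24 and 2.29 CPM, at the 2.94 percentile of detected genes per kb. Csk was above every SRC family gene in every culture and, per kb, equalled 1.71, 1.77 and 1.93 times the sum of the 7 SRC family genes in cultures 1, 2 and 3. Frk, Ptk6 and Srms, the SRC-related kinases known from epithelia, had 0 of 3 genes detected: Frk had 1 read in culture 3, Ptk6 had 1 read in culture 1, and Srms had 4, 1 and 1 reads. The epithelial markers Epcam, Krt5 and Krt14 had no read either, and the summed level of that list of 6 was 0.218, 0.177 and 0.134 CPM.

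Of the TEC family, Btk, Tec and Txk were detected and Bmx was not. Btk, the kinase whose loss blocks B cell development (ENSMUSG00000031264, chromosome X, 134542336 to 134583570, minus strand), had 323, 315 and 307 CPM. It stood at 100.04 ± 2.63 CPM per kb, the 96.6 percentile of detected genes, below Jak1 in each culture. Tec, present in many blood lineages, had 53.8, 53.0 and 49.9 CPM. Txk, a T cell and NK cell kinase, had 1.93, 2.39 and 2.02 CPM. Btk was 7.17 ± 0.116 times Tec per kb. Txk and Tec lie 2.94 kb apart on chromosome 5 on the same strand, and per kb Tec was 72.9 ± 8.31 times Txk. With the longest transcript as length Tec was 49.7 ± 5.67 times Txk. Bmx, the endothelial and myeloid member, had 0 reads in every culture, and Btk was at least 3389-fold higher per kb at the limit of 3 reads per library.

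In each of the SYK, FES, FAK and ACK pairs a single gene was detected. Syk, which docks on phosphorylated immune receptor tails (ENSMUSG00000021457, chromosome 13, 52583173 to 52648792, plus strand), had 168, 157 and 152 CPM, and its T cell relative Zap70 had 1, 1 and 0 reads. Fes, a myeloid kinase (ENSMUSG00000053158, chromosome 7, 80377756 to 80387946, minus strand), had 396, 350.3 and 349 CPM, and its widely expressed relative Fer had 1 read in culture 2 and 0 in the others. Ptk2b, which encodes the calcium-responsive PYK2 (ENSMUSG00000059456, chromosome 14, 66153257 to 66281052, minus strand), had 249, 248 and 244 CPM. Ptk2, which encodes FAK and is expressed in most adherent cells (ENSMUSG00000022607, chromosome 15, 73205102 to 73423280, minus strand), had 0 reads among 103106064 in the 3 libraries. Ptk2b was thus at least 4245-fold higher than Ptk2 per kb of exon union (7398 and 11803 bases) at the limit of 3 reads per library. With the longest transcripts (4034 and 4678 bases) as length the bound is lower. Tnk2, the CDC42-binding kinase ACK1, had 77.6, 76.2 and 91.3 CPM, highest in culture 3, and Tnk1 had 8, 4 and 5 reads.

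Both ABL genes were detected. Abl1, the kinase of the BCR-ABL fusion (ENSMUSG00000026842, chromosome 2, 31688376 to 31804227, plus strand), had 122, 131 and 135 CPM, and Abl2 had 70.2, 75.6 and 76.5 CPM. Culture 1 was the lowest for both. Per kb, Abl1 was 1.63 ± 0.0181 times Abl2, with the lowest SD relative to the mean (1.12%) among 12 gene pairs compared this way. The size of this ratio rests on the length used, and with the longest transcript it was 2.80 ± 0.0313. Bcr, the fusion partner gene of Abl1, had 63.8, 71.0 and 73.9 CPM.

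Among the 12 undetected kinases, 3 had no read at all (Ptk2, Blk and Bmx), 6 had 1 or 2 reads over all cultures (Yes1, Fer, Fgr, Frk, Ptk6 and Zap70), and Srms, Tnk1 and Src had 6, 17 and 32. Their highest value in any culture was 0.323 CPM. The nearest protein-coding genes on both sides were detected for 5 of the 12 (Src, Yes1, Fgr, Fer and Ptk2), on 1 side for 4 and on neither side for Srms, Blk and Bmx. Over all protein-coding genes 45.9% were detected, and no matching count was made for the neighbours of other undetected genes. Ptk2 lay 20.2 kb from Ago2, an Argonaute gene with 432, 528 and 509.6 CPM, and 89.3 kb from Dennd3, with 32.3, 29.2 and 30.8 CPM. Yes1 lay 93.7 kb from the phosphatase gene Ppp1cb (320.3, 335 and 329 CPM) and 49.2 kb from Pisd (17.6, 18.3 and 17.5 CPM). Fer lay 363 kb from Fbxl17 (22.03, 24.03 and 27.3 CPM) and 141.5 kb from Pja2 (86.2, 92.1 and 91.9 CPM). The nearest protein-coding neighbours of these 3 kinase genes were thus transcribed in every culture. Their distances reached 363 kb, and whether this differs from other undetected genes was not tested.

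The cultures differed little in these genes. Whether a gene varied beyond counting noise was tested with a chi-square test of Poisson heterogeneity over all 13141 genes with a mean of at least 10 reads, with Benjamini-Hochberg adjustment. It compares these 3 libraries and not conditions. Of the 19 kinase genes with enough reads, 11 were called, beside 32.8% of all genes tested. Calls were more frequent at depth: every called kinase had a mean over 1000 reads, where 11 of 15 kinases and 45.0% of all genes were called. Among the 16 kinases with a mean of at least 100 reads, the median ratio of the highest to the lowest culture was 1.09, beside 1.08 over all such genes. The coefficient of variation beyond counting noise had a median of 3.80% in these kinases and 3.02% over all such genes.

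Jak3 differed most among the called kinase genes, by 1.34 times between cultures 1 and 2 (chi-square test, adjusted p = 4.3e-18), followed by Tnk2 at 1.198 (adjusted p = 1.3e-12). Fes followed at 1.14 (chi-square test, adjusted p = 8.0e-28) and Csk at 1.13 (adjusted p = 2.5e-16). Abl1, Syk, Abl2, Tyk2, Jak2, Btk and Jak1 were also called, with ratios from 1.11 down to 1.05 and adjusted p from 1.1e-05 to 0.0177. The cultures did not shift together: of the 11 called genes, culture 1 was highest in 4, culture 2 in 2 and culture 3 in 5. By the same chi-square test Ptk2b (ratio 1.02, adjusted p = 0.494), Lyn (1.03, 0.490), Fyn (1.05, 0.536) and Tec (1.08, 0.132) were not called, although each had over 1000 reads. Matk (1.28), Txk (1.24) and Lck (1.10) had ratios as large as called genes but between 62 and 246 reads a culture, so the missing calls do not show that they were steadier.

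Only Jak3 and Csk kept their call whichever culture was left out. Without culture 1 the chi-square calls of Fes (adjusted p = 0.906), Syk (0.290), Abl1 (0.403), Abl2 (0.851) and Btk (0.171) ended. Without culture 2 the chi-square calls of Jak1 (adjusted p = 0.114) and Tyk2 (0.927) ended, and without culture 3 those of Jak2 (0.328), Tnk2 (0.734) and Btk (0.244). The Btk call also ended with trimmed mean of M values scaling (adjusted p = 0.223) and with median-of-ratios scaling (0.118) in the chi-square test.

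**Figure D4:**
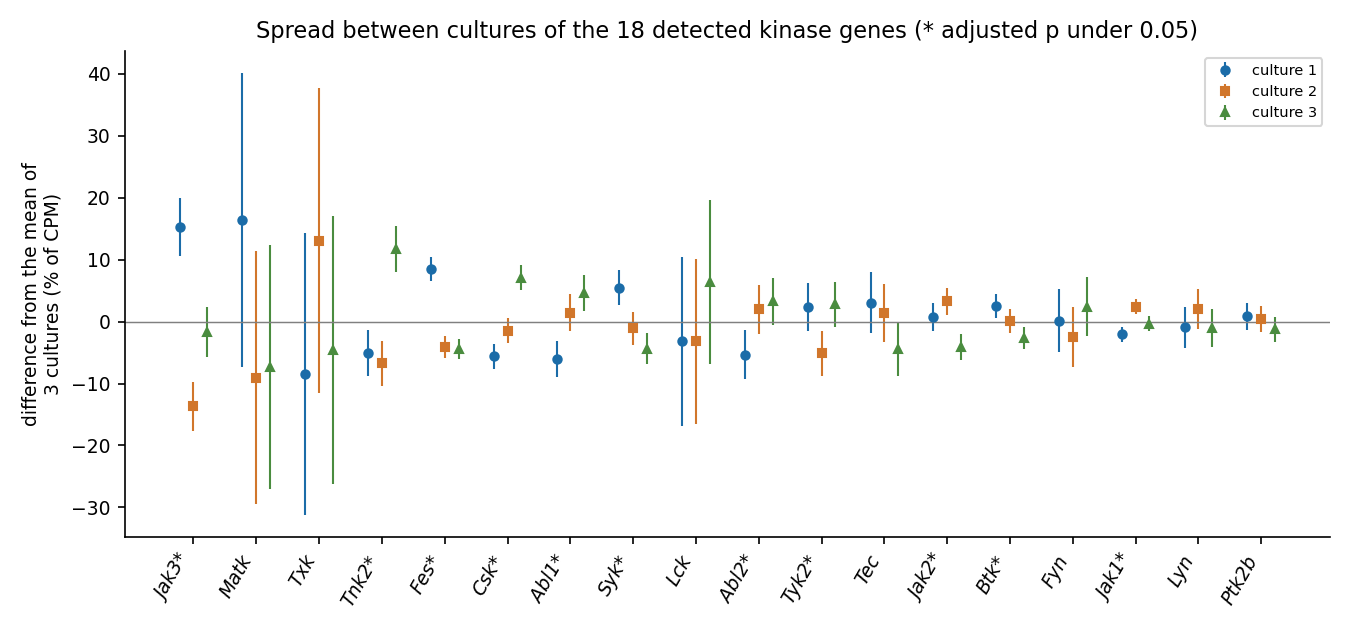
Difference of each culture from the mean of the 3 cultures (percent of CPM) for the 18 detected kinase genes, ordered by the ratio of the highest to the lowest culture; bars are 95% counting intervals and asterisks mark adjusted p under 0.05. Jak3 spreads from -13.7% to 15.3% and Ptk2b from -1.27% to 0.846%.

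The genes that place these kinases at receptors and restrain them were described with 5 lists of 88 genes in all. Of these, 69 were detected (78.4%), beside 45.9% of all protein-coding genes. The lists were chosen by name with earlier results of these data known, so the shares detected describe only the listed genes. Their detected members had a median of 14.0 CPM per kb, near the 13.7 of the kinases. Of 70 with enough reads, 26 were called by the chi-square test, or 37.1%, beside 32.8% of all genes tested and 37.1% of the genes tested that had at least 1 CPM in each culture. From each list the 3 detected genes with the highest CPM are given; CPM is not per length, so CPM per kb follows where genes are compared.

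Of 19 receptor chains that bind JAK kinases, 13 were detected, with a median of 10.6 CPM per kb. Csf2rb, the common beta chain, had 721 ± 21.7 CPM and its close copy Csf2rb2 675 ± 21.03 CPM, and the split of reads between the 2 genes is uncertain. Per kb these were 99.1 ± 2.98 and 142 ± 4.44, beside 46.8 ± 1.75 for Jak2. Il4ra, the interleukin-4 receptor chain, had 110.4 ± 2.84 CPM. Il6st, Il10ra and Csf3r had no read.

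Of 12 listed genes of immune receptors and their signalling chains, 8 were detected. Not all carry the tyrosine motifs on which SYK and ZAP70 dock (ITAMs): of those detected, Fcgr3, Fcgr2b and Hcst do not. The myeloid receptor gene Fcgr3 had 111 ± 2.47 CPM, and the signalling chains Tyrobp and Fcer1g, which recruit SYK, had 90.0 ± 3.52 and 79.0 ± 2.90 CPM. The T cell receptor chains Cd3e, Cd247 and Cd3d had between 3 and 8 reads over all cultures, beside 2 for Zap70. A further such chain, Cd3g, was detected, with 4.18 ± 0.228 CPM. Cd79b, a B cell receptor chain, had 19.5 ± 1.22 CPM and its partner Cd79a 1.75 ± 0.118 CPM.

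Of 26 adaptors and scaffolds, 22 were detected. The 3 highest by CPM were Grb2 (222 ± 3.49 CPM), which links receptors to RAS, Lat2 (140.4 ± 6.26 CPM) and Skap2 (129 ± 2.79 CPM). Per kb these were 76.2 ± 1.196, 53.6 ± 2.39 and 11.4 ± 0.246, so Skap2 lay below the list's median of 14.9 CPM per kb. Blnk, the B cell adaptor between SYK and BTK, had no read, nor did Skap1 and Vav3. Of 20 genes listed as restraints, 17 were detected, and CD45, the product of Ptprc, is not only a restraint on SRC family kinases. The 3 highest by CPM were Ptprc, the CD45 phosphatase gene (461, 438 and 414 CPM), the STAT5 target Cish (445, 358 and 371 CPM) and the ubiquitin ligase gene Cbl (209, 258 and 244 CPM). All 3 were called by the chi-square test, with adjusted p of 4.8e-18, 8.2e-80 and 4.0e-38, and culture 1 was highest for Ptprc and Cish and lowest for Cbl. They are deeply read genes, and of all genes with a mean of at least 1000 reads 45.0% were called. Of the 17 genes of the list that were tested, 9 were called (52.9%), beside 32.8% of all genes tested. Per kb they were 23.9 ± 1.28, 61.0 ± 7.33 and 19.2 ± 2.07, beside a list median of 15.97; Ptpn6, the SHP-1 phosphatase gene, named after its value was seen, was higher than Ptprc per kb at 66.1 ± 2.18. Sit1, Cblc and Lime1 had 1, 6 and 19 reads in all.

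Of 11 partners of FAK and PYK2, 9 were detected, beside 45.9% of protein-coding genes. Of the 2 kinase genes themselves, Ptk2 had no read and Ptk2b had 247 ± 2.77 CPM. Tln1, the integrin-activating talin gene, had 726, 798 and 869 CPM (chi-square test, adjusted p = 1.0e-94), lowest in culture 1 and highest in culture 3. Pxn, the paxillin gene, had 159 ± 3.95 CPM and Git2 141 ± 5.78 CPM. Per kb they were 81.4, 19.3 and 8.10 for Tln1, Pxn and Git2, respectively. Efs and Tgfb1i1 were not detected.

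**Figure D5:**
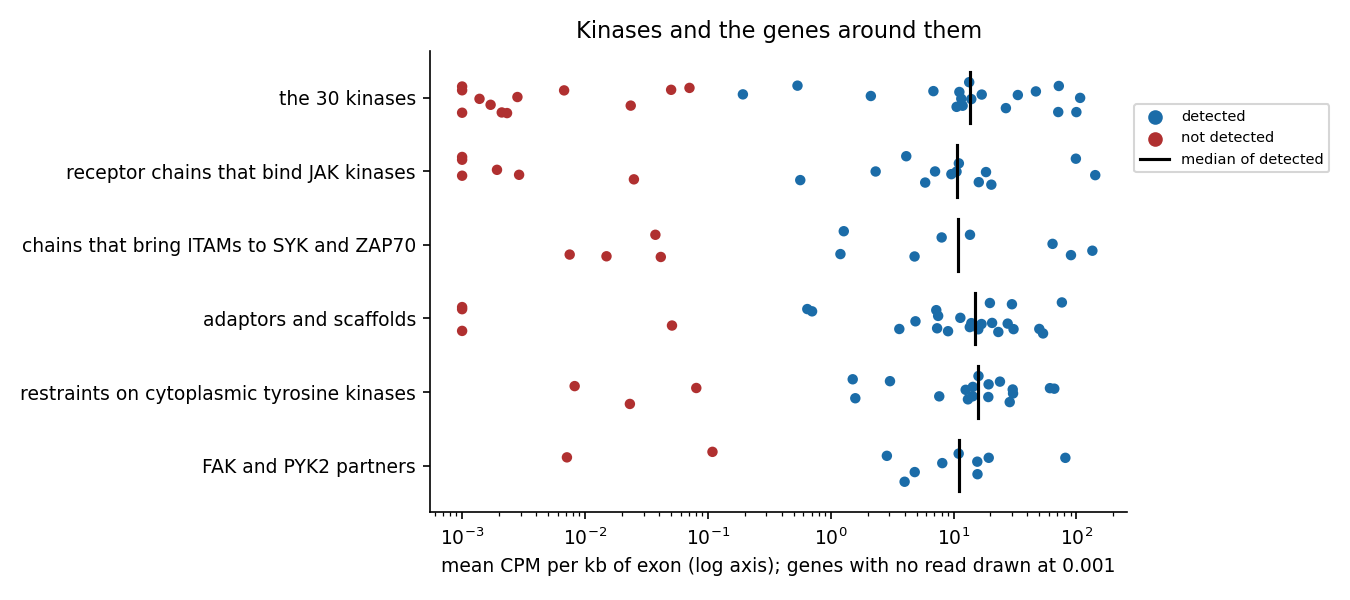
Mean CPM per kb of exon (log axis) of the 30 kinases and of 5 lists of genes around them, a point per gene, blue where detected and red where not; black bars are medians of the detected genes, from 10.6 for the receptor chains to 15.97 for the restraining genes. Vertical scatter within a row carries no meaning.

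Exons of some kinases overlap other genes. Jak3 shares 404 of 5352 exon bases with Insl3 on the same strand, and Insl3 had 7, 8 and 11 reads. Tnk1 shares 891 of 3329 bases with Plscr3 on the opposite strand, which had 1224, 1193 and 1403 reads, and whether the counting used strand is not given in the sources used here. Ptk2, Fer, Blk and Bmx shared no exon base with another gene, and Yes1 shared 635 of 7508 bases with Gm10461 on the opposite strand, which had no read.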

How the data were processed

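Polyadenylated RNA of 3 Ba/F3 cultures was made into strand-marked libraries and read as 50-base single ends. The authors aligned reads to GRCm38 with HISAT2 and counted them per gene with GenSum, per the labels' series text; tool versions, the annotation release and any use of strand in counting were not stated. The deposited values are log2(reads per 10000000 + 1), judged from column sums of 10000000, and division by the value of 1 read gave whole reads for 100% of entries within a tolerance of 0.01. Cultures 1 and 2 follow the gene identifiers and culture 3 the symbols and coordinates of each row: among rows with reads, 0 paired the same gene. Culture 3 was joined through GENCODE M21 (GRCm38) by exact coordinates for 54916 of 55486 rows and by a unique symbol for 324. All 30 kinases joined by coordinates.

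Reads were scaled to each column's sum (CPM). The test was a chi-square test of Poisson heterogeneity on recovered reads with Benjamini-Hochberg adjustment at 0.05 (Python 3.11.15, scipy 1.17.1), tested on simulated data; exon lengths came from GENCODE. The planned unit was met in log form, so no count package was used. Members, lists and settings were chosen with earlier results of these data known. All 30 kinases and, per list, the 3 highest detected by CPM and up to 3 undetected genes are named; Il3ra, Cd79a, Cd79b, Bcr, Ptpn6 and the neighbouring and overlapping genes were added after their values were seen. A few list genes are not reported here.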

Additional observations from a re-analysis of the deposited data

How the results depend on the processing

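The count of 18 detected kinases was the same at 0.5 CPM, with detection in at least 1 culture, with either other scaling and without any 1 culture (range 18 to 18). It was 16 at 5 CPM, where Matk and Txk fell out. On the rows as deposited, where culture 3 holds another gene's reads, it was also 18. For that reason no result on those rows, here or below, is a check on the kinases. The count of 11 kinases that differed between cultures was 11 with no read minimum, with 100 mean reads or adjusted over protein-coding genes (17.0%, 40.2% and 36.3% of all genes called, beside 32.8%), 10 with either other scaling (34.3%) and 8 on the rows as deposited (30.3%). Leaving out a culture gave 6 to 9: 6 without culture 1, 9 without culture 2 and 8 without culture 3, beside 11.1%, 29.5% and 20.2% of all genes. The median of 13.7 CPM per kb was 20.05 with the longest transcript as length, 47.6 rescaled to TPM and 15.5 at 5 CPM, beside 11.8, 30.1 and 10.5 for all detected genes, and 13.4 to 13.9 without a culture. That length was applied to the 12 pair ratios after seeing the data. It changed Abl1 over Abl2 by 1.72 times, from 1.63 to 2.80. Jak1 over Jak2 changed by 1.47 times (2.29 to 3.38) and Tec over Txk by 1.47 (72.9 to 49.7). Jak2 over Tyk2 changed by 1.42 times, Btk over Syk by 1.41 and the other pairs by 1.16 or less. The median log2 offset of culture 3, -0.0215, was 0.0281 on the rows as deposited, 0.00428 with trimmed mean of M values, -0.00331 with median of ratios, and 0.00207 to 0.00616 without culture 1 or 2; the cause was not tested, and its sign is not fixed by these data. Depth limits the undetected genes to the level of 3 reads. No paired analysis was possible because the series holds 1 group.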

Other observations

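Among rows of the deposited table with reads, 0 pair an identifier and a symbol of the same gene, which bears on the authors' average. On the 18 rows that carry the symbol of a detected kinase, 0 carry its own identifier; the row with the symbol Jak1 has the identifier of Cap1, and that with Btk the identifier of Furin. The authors' average on these rows, from the authors' deposited table and turned back to CPM, was between 0.935 and 1.02 times the mean matched by gene. Among undetected kinases the lowest ratio was 0.744, for Tnk1. The measures are unlike: the authors' average is a mean of log2 values over rows that mix genes, and the matched value a mean of CPM. Their closeness does not show that the average belongs to the named gene. The matched values differed by little in culture 3: over the 18 detected kinases, log2(CPM + 1) in culture 3 minus the mean of cultures 1 and 2 had a median of -0.02, beside -0.01 over all detected genes. It was -0.01 for the kinases in culture 2 minus culture 1.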
